A study of Oryza sativa with 48 samples.

Results

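Rice leaves that had stopped elongating were compared between day 6 and day 3 of complete submergence in the cultivar M202, by RNA sequencing of all genes. The comparison holds 6 of the 48 libraries of the series, with 3 libraries of M202 non-elongating leaves on day 6 and 3 of the same leaves on day 3, chosen by their labels for genotype, leaf and day. M202 is a japonica rice that lacks the submergence tolerance gene SUB1A, and all 6 libraries share this genotype, the lower leaves of plants grown in greenhouse pots to the same leaf stage, and growth under water until sampling. The other libraries used here come from M202(Sub1), a near-isogenic line with the SUB1 locus introduced into M202 (non-elongating leaves, 3 libraries on day 6 and 3 on day 3), and from the fifth, elongating leaf of M202 (3 libraries on day 6 and 3 on day 3). Days 0 and 1 of the non-elongating leaves are given as levels, for M202 in the text and for both lines in a figure. The labels call the replicates independent and biological, and leaves of other plants were taken on each day. No air-grown plants of days 3 and 6 were analysed here, so time under water cannot be told apart from leaf age or the day of sampling. Whole leaves were measured, so fewer cells of a type and less RNA per cell cannot be told apart.

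Under water, gas exchange is slow and light is weak, so leaves run short of oxygen in the dark and of carbohydrate over days. Plant cells that lack oxygen pass pyruvate through pyruvate decarboxylase and alcohol dehydrogenase to ethanol, which regenerates the NAD that glycolysis needs. Ethylene gathers in submerged tissue and acts through the group VII ethylene response factors, to which SUB1A belongs. Submerged rice leaves without SUB1A are known to use up their carbohydrate and to lose chlorophyll sooner than leaves that carry it, and older leaves yellow first.

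Depth was 9159395, 9654909 and 7134542 counts in the day 6 libraries and 6655713, 7130662 and 5879544 counts in the day 3 libraries, within the 4873142 to 10369501 of all 48. Of 37830 genes in the table, 21453 had enough counts to be tested. One library stood apart. Day 6 replicate 2 correlated with replicates 1 and 3 of its group at 0.9596 and 0.963, and its chi-square per degree of freedom against them, 86.7 and 62.9, was the highest of all pairs of replicates (median 9.08). The 10 most abundant genes held 14.7, 27.5 and 20.8% of the counts on day 6, against 8.63, 8.63 and 11.1% on day 3, and 27.5% was the highest share of all 48 libraries. One gene to which the tables used here give no name, OS02G0176300, had 26965, 117847 and 33193 CPM on day 6, against 12062, 13001 and 22146 CPM on day 3. CPM are counts per library size, with that size adjusted by TMM factors, which were 0.834 for day 6 replicate 2 and up to 1.1038 on day 3, so the CPM of different libraries do not add up to the same total. They are not corrected for gene length. The counts that lead each paragraph on gene groups are also given without day 6 replicate 2.

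Between day 3 and day 6, 6263 of the 21453 tested genes changed at an adjusted p under 0.05, which is 29.2% of them. Of these 2982 (13.9%) rose and 3281 (15.3%) fell. Among the 2138 genes (9.97%) that changed at least 2-fold, falls were more frequent, with 790 (3.68%) that rose and 1348 (6.28%) that fell. The median log2 change over all tested genes was -0.02, with quartiles of -0.46 and 0.38. In 7765 genes (36.2%) the 3 day 6 libraries did not overlap with the 3 day 3 libraries, and 5317 of these (24.8% of the tested genes) also passed the test. Without day 6 replicate 2, 5103 genes passed, 4562 of them among the 6263. At least 2-fold changes then numbered 719 upward and 1201 downward.

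**Figure D1:**
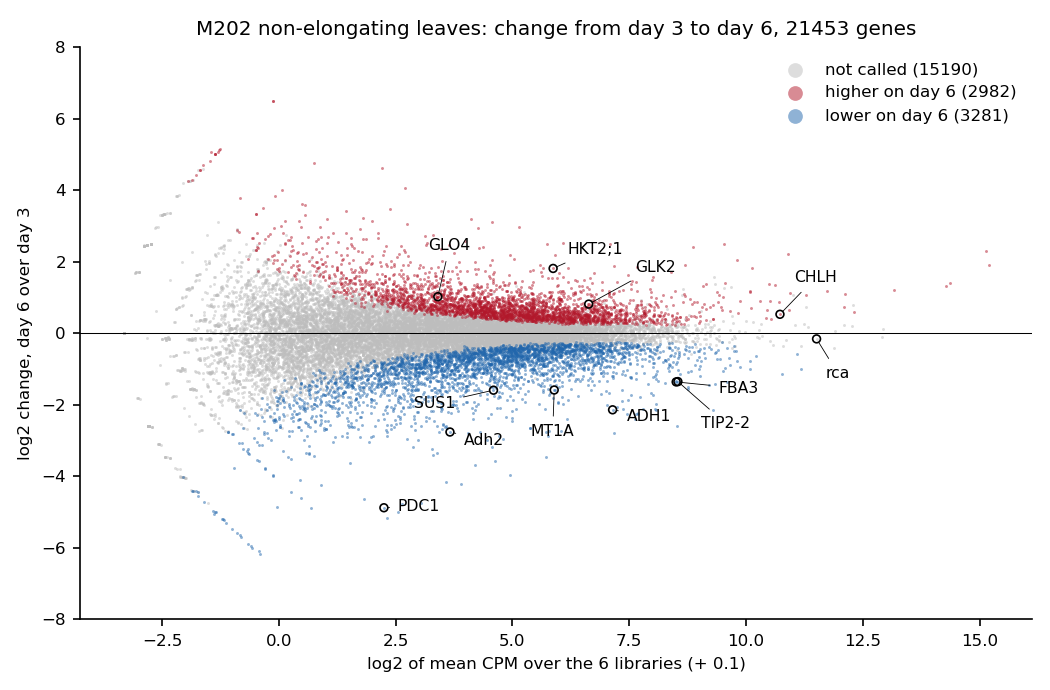
Change of each tested gene in M202 non-elongating leaves (vertical axis, log2 of day 6 over day 3) against its level (horizontal axis, log2 of the mean CPM over the 6 libraries, with 0.1 added). Points are genes, coloured by the test, with 2982 higher and 3281 lower on day 6. PDC1, at -4.89, lies far below the other labelled genes, and Adh2, at -2.77, and ADH1, at -2.15, come next.

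Most tested genes of fermentation and the pyruvate branch fell. Of 5 tested members with a checked name (alcohol dehydrogenases, pyruvate decarboxylases and a pyruvate phosphate dikinase) 3 fell and 1 rose, with a median log2 change of -2.15, and over the whole list of 9 tested genes 6 fell. The whole list also takes in identifiers for aldehyde and lactate dehydrogenase and alanine aminotransferase whose names could not be checked. Of all tested genes 13.9% rose and 15.3% fell. Without day 6 replicate 2, 3 of the 5 and 5 of the 9 fell. ADH1 (OS11G0210300), the main alcohol dehydrogenase of submerged rice, had 68.7, 40.03 and 47.04 CPM on day 6, against 248, 227 and 217 CPM on day 3. All day 6 libraries lay below all day 3 libraries, and the gene fell by 2.15 ± 0.15 on the log2 scale (SE; adjusted p = 7.86e-15), a 4.43-fold higher level on day 3. On days 0, 1, 3 and 6 its mean level was 20.8 ± 3.72, 468 ± 43.1, 231 ± 15.5 and 51.9 ± 14.9 CPM (SD, n = 3 each), with the highest mean on day 1. Adh2 (OS11G0210500), its neighbour on chromosome 11 and a second alcohol dehydrogenase, had 1.48, 3.48 and 5.03 CPM on day 6, against 20.4, 24.7 and 20.3 CPM on day 3. It fell by 2.77 ± 0.27 on the log2 scale (SE; adjusted p = 9.64e-11). PDC1 (OS05G0469600), a pyruvate decarboxylase that feeds acetaldehyde to alcohol dehydrogenase, had 3, 2 and 2 counts in the day 6 libraries, against 79, 71 and 45 counts on day 3. The gene was thus close to the limit of detection on day 6. Its summed level on day 6 was 0.0317 times that on day 3 (exact 95% interval 0.0126 to 0.0666, for counting error only), and it passed the test (fitted log2 change -4.89 ± 0.39 (SE; adjusted p = 1.51e-12)). PPDKB (OS05G0405000), a pyruvate phosphate dikinase that works against glycolysis at the pyruvate step, had 528, 691 and 473 CPM on day 6, against 451, 453 and 482 CPM on day 3. Its ranges overlapped, and it rose by 0.29 ± 0.11 on the log2 scale (SE; adjusted p = 0.0407), a call lost without day 6 replicate 2 (adjusted p = 0.408), day 3 replicate 1 (0.105) or day 3 replicate 2 (0.0928).

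**Figure D2:**
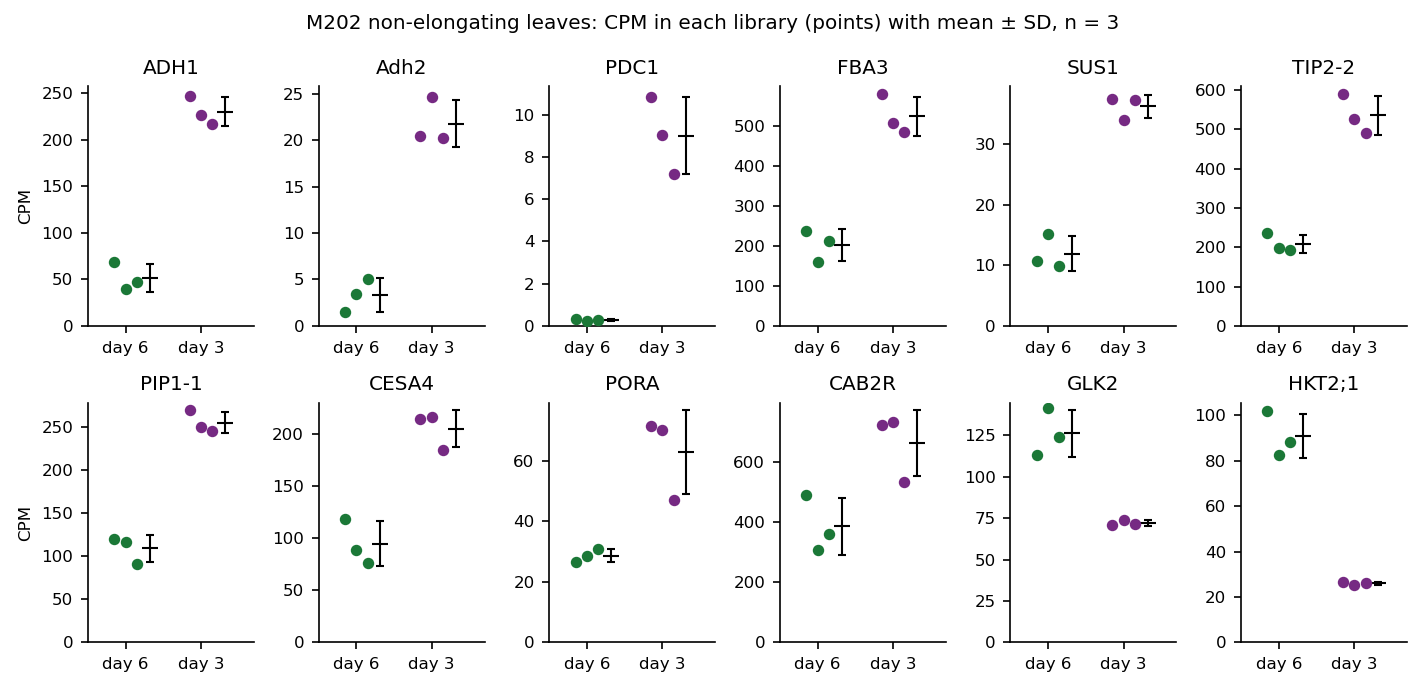
CPM in the 3 day 6 libraries (left in each panel) and the 3 day 3 libraries (right) of M202 non-elongating leaves for 12 genes; points are libraries, the bar is the mean ± SD, and each axis starts at 0. The days do not overlap in any of the 12 panels, and GLK2 and HKT2;1 are the ones higher on day 6.

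Glycolysis and sucrose cleavage supply fermentation with pyruvate and hexose, and 8 of their 15 tested genes fell, against 15.3% of all tested genes. Of 10 tested glycolysis genes 5 fell and 1 rose (median -0.55), and without day 6 replicate 2 the same number fell. FBA3 (OS01G0905800), a fructose bisphosphate aldolase, had 237, 159 and 213 CPM on day 6, against 578, 507 and 485 CPM on day 3. The days did not overlap, and it fell by 1.37 ± 0.15 on the log2 scale (SE; adjusted p = 2.38e-09). Its means on days 0, 1, 3 and 6 were 103 ± 17.6, 901 ± 139, 523 ± 48.8 and 203 ± 40.1 CPM (SD, n = 3 each). Of the cytosolic glyceraldehyde phosphate dehydrogenases, GAPC3 (OS02G0601300) had 50.9, 27.3 and 53.8 CPM on day 6, against 116, 104 and 86.3 CPM on day 3, and it fell by 1.22 ± 0.17 on the log2 scale (SE; adjusted p = 3.51e-07). GAPC2 (OS04G0486600) fell by 1.15 ± 0.13 on the log2 scale (SE; adjusted p = 8.6e-09) and the aldolase FBA1 (OS05G0402700) fell by 0.77 ± 0.15 on the log2 scale (SE; adjusted p = 8.03e-05). HXK2 (OS05G0522500), a hexokinase, had 60.4, 77.8 and 56.6 CPM on day 6, against 34.8, 49.4 and 52.97 CPM on day 3. It was the 1 member that rose, by 0.51 ± 0.15 on the log2 scale (SE; adjusted p = 0.0107), and the call was lost without day 6 replicate 2 (adjusted p = 0.1) or day 3 replicate 1 (0.13). Of 5 tested genes of sucrose cleavage 3 fell, with a median of -0.55, also without day 6 replicate 2. SUS1 (OS03G0401300), a sucrose synthase, had 10.7, 15.2 and 9.91 CPM on day 6, against 37.4, 33.97 and 37.2 CPM on day 3. All its day 6 values were below all day 3 values, and it fell by 1.60 ± 0.24 on the log2 scale (SE; adjusted p = 2.3e-06). The sucrose synthase SUS4 (OS03G0340500) had 30.8, 30.8 and 30.3 CPM on day 6, against 42.9, 45.8 and 45.95 CPM on day 3, and it fell by 0.55 ± 0.17 on the log2 scale (SE; adjusted p = 0.0115). CIN2 (OS04G0413500), a cell wall invertase, had 0.634, 0.497 and 0.592 CPM on day 6, against 4.66, 5.09 and 3.19 CPM on day 3. It fell by 2.87 ± 0.76 on the log2 scale (SE; adjusted p = 0.00348).

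Most aquaporins, the membrane channels for water and small solutes, fell. Of 12 tested members 8 fell, against 15.3% of all tested genes, and 4 did not pass. Their median log2 change was -1.16, beside -0.02 over all genes, and without day 6 replicate 2 it was -1.25 with 7 members called. TIP2-2 (OS06G0336200), a channel of the vacuolar membrane, had 236, 198 and 193 CPM on day 6, against 589.8, 526 and 492 CPM on day 3. The days were far apart, and it fell by 1.36 ± 0.14 on the log2 scale (SE; adjusted p = 2.42e-10). Its means on days 0, 1, 3 and 6 were 45.3 ± 5.43, 171 ± 8.73, 536 ± 49.8 and 209 ± 23.3 CPM (SD, n = 3 each), with day 3 the highest. PIP1-1 (OS02G0666200), a channel of the plasma membrane, had 119.9, 116 and 91.4 CPM on day 6, against 269.8, 251 and 246 CPM on day 3, and it fell by 1.22 ± 0.14 on the log2 scale (SE; adjusted p = 7.7e-09). Its means on days 0, 1, 3 and 6 were 305 ± 71.3, 115 ± 8.04, 255 ± 12.7 and 109 ± 15.5 CPM (SD, n = 3 each), so that the day 6 level was near that of day 1. PIP2-6 (OS04G0233400) had 8.88, 11.7 and 9.02 CPM on day 6, against 22.3, 27.2 and 31.9 CPM on day 3, and it fell by 1.46 ± 0.20 on the log2 scale (SE; adjusted p = 3.76e-07). PIP1-2 (OS04G0559700) had 78.1, 171 and 64.2 CPM on day 6, against 216, 203 and 288 CPM on day 3. Day 6 replicate 2 lay nearest to the day 3 values, and the gene fell by 1.17 ± 0.22 on the log2 scale (SE; adjusted p = 8.25e-05).

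Most cellulose synthases fell in the same interval. Of 8 tested genes 5 fell, against 15.3% of all tested genes, with a median of -0.81, and the same number fell without day 6 replicate 2. CESA4 (OS01G0750300), a subunit of the complex that makes secondary walls, had 119, 88.6 and 76.5 CPM on day 6, against 214, 216 and 184 CPM on day 3, and it fell by 1.11 ± 0.15 on the log2 scale (SE; adjusted p = 1.77e-07). CESA1 (OS05G0176100), a subunit of the complex of primary walls, had 183, 219 and 152 CPM on day 6, against 309.8, 333 and 349.6 CPM on day 3. It fell by 0.84 ± 0.12 on the log2 scale (SE; adjusted p = 6.1e-07). CESA5 (OS03G0837100) and CESA6 (OS07G0252400), also of primary walls, fell by 0.84 ± 0.15 and 0.78 ± 0.15 on the log2 scale (SE; adjusted p = 2.12e-05 and 7.13e-05). The days did not overlap for any of these 4 genes. Of 10 tested expansins, proteins that loosen growing walls, 4 fell, against the same 15.3% (median -0.38), and 3 of the 10 without day 6 replicate 2. EXPB4 (OS10G0556100) had 19.1, 29.6 and 10.5 CPM on day 6, against 43.1, 38.4 and 37.2 CPM on day 3, and it fell by 1.00 ± 0.25 on the log2 scale (SE; adjusted p = 0.00231). EXPB11 (OS02G0658800) fell by 0.92 ± 0.25 on the log2 scale (SE; adjusted p = 0.00469).

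Most light harvesting genes and photosystem subunits fell, while most genes of the Calvin cycle did not pass the test. Most members of these lists have a name that could not be checked, so counts are over the whole lists, to be read against the 15.3% of all tested genes that fell. Of 11 antenna proteins 8 fell (median -0.69), and of 15 genes of the photosystems and plastid electron transport 10 fell (median -0.75). Without day 6 replicate 2 the counts were again 8 and 10. CAB2R (OS01G0600900), a chlorophyll a/b binding protein, had 488, 306 and 361 CPM on day 6, against 720.5, 729.5 and 533 CPM on day 3. The days did not overlap, and it fell by 0.78 ± 0.19 on the log2 scale (SE; adjusted p = 0.00177). LHCP (OS03G0592500), another antenna protein, had 213, 190.3 and 182 CPM on day 6, against 378, 340.3 and 241 CPM on day 3, and it fell by 0.71 ± 0.19 on the log2 scale (SE; adjusted p = 0.00299). PSAH (OS05G0560000), a subunit of photosystem I, had 70.9, 85.8 and 52.1 CPM on day 6, against 134, 121 and 96.5 CPM on day 3, and it fell by 0.75 ± 0.18 on the log2 scale (SE; adjusted p = 0.00126). Of 14 tested Calvin cycle genes 3 rose and 2 fell (median -0.05), and without day 6 replicate 2 the counts were 2 and 1. rca (OS11G0707000), the activase of the carbon-fixing enzyme Rubisco and one of the most abundant named genes on both days, had 3656, 2625 and 1974 CPM on day 6, against 3383, 3301 and 2560.4 CPM on day 3. Its ranges overlapped, and its log2 change was -0.16 ± 0.19 (SE; adjusted p = 0.561). ALDP (OS11G0171300), a plastid aldolase, had 3382, 5572 and 2716 CPM on day 6, against 3691, 3820.1 and 3747 CPM on day 3, with a log2 change of 0.05 ± 0.16 (SE; adjusted p = 0.846). Of 12 photorespiration genes, for which 13.9% and 15.3% are the shares over all genes, 2 rose and 3 fell (median -0.12). GLO4 (OS07G0616500), a glycolate oxidase, had 13.1, 13.2 and 15.7 CPM on day 6, against 4.93, 6.36 and 9.57 CPM on day 3, and it rose by 1.02 ± 0.22 on the log2 scale (SE; adjusted p = 0.000472).

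Genes of chlorophyll synthesis moved in both directions. Of 13 tested members with a checked name 4 rose and 3 fell (median 0.09), with the same counts without day 6 replicate 2. Of all tested genes 13.9% rose and 15.3% fell. Both GOLDEN2-LIKE transcription factors, which activate genes for chloroplast development, rose. GLK2 (OS01G0239000) had 113, 141 and 124 CPM on day 6, against 70.7, 74.05 and 71.2 CPM on day 3, and it rose by 0.81 ± 0.12 on the log2 scale (SE; adjusted p = 1.13e-06). GLK1 (OS06G0348800) had 903, 1233 and 1125 CPM on day 6, against 734, 729 and 731 CPM on day 3, and it rose by 0.57 ± 0.12 on the log2 scale (SE; adjusted p = 0.000345). Neither overlapped between the days. The means of GLK2 on days 0, 1, 3 and 6 were 115 ± 3.19, 65.3 ± 1.37, 71.96 ± 1.82 and 126 ± 14.05 CPM (SD, n = 3 each). CHLH (OS03G0323200), a subunit of the magnesium chelatase that commits protoporphyrin to chlorophyll, had 2235, 1815 and 1946 CPM on day 6, against 1365, 1438 and 1366 CPM on day 3, and it rose by 0.52 ± 0.13 on the log2 scale (SE; adjusted p = 0.00132). That call was lost in a fit of only the groups compared (adjusted p = 0.0527). PORA (OS04G0678700), a protochlorophyllide reductase of the step that needs light, had 26.7, 28.6 and 30.8 CPM on day 6, against 71.6, 70.2 and 47.1 CPM on day 3. It fell by 1.14 ± 0.26 on the log2 scale (SE; adjusted p = 0.00076). GSA (OS08G0532200), which makes the precursor aminolevulinate, had 203, 212 and 168 CPM on day 6, against 326, 312 and 294 CPM on day 3, and it fell by 0.68 ± 0.14 on the log2 scale (SE; adjusted p = 0.000245).

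Genes that take apart chlorophyll, nitrogen compounds and cell contents did not move as a block. Their counts are to be read against the 13.9% of all tested genes that rose and the 15.3% that fell. Of 4 tested genes of chlorophyll breakdown with a checked name 1 rose and 1 fell, also without day 6 replicate 2. SGR (OS09G0532000), the magnesium dechelatase that opens chlorophyll breakdown, had 193, 116 and 338 CPM on day 6, against 133, 123 and 123 CPM on day 3. It rose by 0.77 ± 0.22 on the log2 scale (SE; adjusted p = 0.00777), but its ranges overlapped. The call was lost without day 6 replicate 3 (adjusted p = 0.368) or in a fit of only the groups compared (0.087). RCCR1 (OS10G0389200), the red chlorophyll catabolite reductase of a later step, had 35.1, 20.3 and 21.00 CPM on day 6, against 46.98, 44.7 and 52.7 CPM on day 3, and it fell by 0.91 ± 0.22 on the log2 scale (SE; adjusted p = 0.00145). NYC1 (OS01G0227100), a chlorophyll b reductase, had 238, 186 and 258 CPM on day 6, against 268, 251 and 259 CPM on day 3, with overlapping ranges and a log2 change of -0.19 ± 0.10 (SE; adjusted p = 0.157). It passed without day 6 replicate 3 (adjusted p = 0.0472). Of 10 tested genes of nitrogen metabolism 4 fell and 1 rose (median 0.08), and 4 fell and 2 rose without day 6 replicate 2. OsGS1;1 (OS02G0735200), a cytosolic glutamine synthetase that exports nitrogen from ageing leaves, had 203, 124 and 99.4 CPM on day 6, against 355, 333 and 236 CPM on day 3, and it fell by 1.11 ± 0.21 on the log2 scale (SE; adjusted p = 8.34e-05). GDH2 (OS04G0543900), a glutamate dehydrogenase, had 107, 104 and 84.2 CPM on day 6, against 68.5, 68.8 and 67.97 CPM on day 3. The days did not overlap, and it rose by 0.53 ± 0.16 on the log2 scale (SE; adjusted p = 0.00914). GLT2 (OS05G0555600), an NADH glutamate synthase, fell by 0.68 ± 0.16 on the log2 scale (SE; adjusted p = 0.00104), and GS2 (OS04G0659100), the plastid glutamine synthetase, fell by 0.41 ± 0.12 on the log2 scale (SE; adjusted p = 0.00586). A fit of only the groups compared lost the call of GS2 (adjusted p = 0.0574). Of 4 autophagy genes 2 fell, also without day 6 replicate 2. ATG8C (OS08G0191600), which coats the forming autophagosome, had 29.9, 30.8 and 27.5 CPM on day 6, against 50.4, 45.8 and 38.9 CPM on day 3, and it fell by 0.61 ± 0.14 on the log2 scale (SE; adjusted p = 0.000948). Of 4 tested NAC factors of leaf senescence with a checked name 1 rose, and over the whole list of 8 genes 2 rose and 3 fell, also without day 6 replicate 2. NAC5 (OS11G0184900) had 34.8, 43.5 and 41.6 CPM on day 6, against 22.5, 23.03 and 24.3 CPM on day 3, and it rose by 0.78 ± 0.22 on the log2 scale (SE; adjusted p = 0.00604). Its means on days 0, 1, 3 and 6 were 133 ± 7.38, 52.3 ± 4.99, 23.25 ± 0.914 and 39.9 ± 4.59 CPM (SD, n = 3 each).

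Hormone genes are given list by list, and their counts stand beside 13.9% of all tested genes that rose and 15.3% that fell. Of 10 tested ethylene genes with a checked name 1 rose and 2 fell (median -0.20), and over the whole list of 18 genes 3 rose and 8 fell, or 2 and 6 without day 6 replicate 2. EIN2 (OS07G0155600), the central transducer of the ethylene signal, had 18.6, 10.9 and 10.1 CPM on day 6, against 21.4, 20.7 and 33.2 CPM on day 3. All day 6 values lay below all day 3 values, and it fell by 0.90 ± 0.19 on the log2 scale (SE; adjusted p = 0.000306). ETR3 (OS02G0820900), an ethylene receptor, had 43.9, 32.1 and 33.4 CPM on day 6, against 28.8, 28.2 and 24.9 CPM on day 3. It rose by 0.42 ± 0.16 on the log2 scale (SE; adjusted p = 0.0485), and the call was lost without any 1 of the 6 libraries but day 6 replicate 2, with adjusted p of 0.0545 to 0.316, and under RLE scaling (0.0533). Of 5 tested genes listed for the Sub1 locus and the group VII ethylene response factors 1 rose and 2 fell. Only 1 of the 5 has a checked name and it did not pass, so these calls are of identifiers whose names could not be checked. Of 9 tested gibberellin genes 2 rose and 2 fell, or 1 and 1 of 10 tested without day 6 replicate 2. EUI1 (OS05G0482400), which deactivates gibberellins, had 9.09, 9.45 and 9.61 CPM on day 6, against 6.03, 5.34 and 4.15 CPM on day 3. It rose by 0.85 ± 0.27 on the log2 scale (SE; adjusted p = 0.0125), and the call was lost without day 3 replicate 3 (adjusted p = 0.0625). GID2 (OS02G0580300), the F-box protein that marks the growth repressor SLR1 for degradation, had 139, 162 and 114 CPM on day 6, against 209.8, 186 and 221 CPM on day 3, and it fell by 0.57 ± 0.14 on the log2 scale (SE; adjusted p = 0.00185). SLR1 (OS03G0707600) itself had 27.8, 20.8 and 21.3 CPM on day 6, against 53.97, 44.1 and 22.3 CPM on day 3. It overlapped between the days and fell by 0.79 ± 0.27 on the log2 scale (SE; adjusted p = 0.0238), and the call was lost without any 1 of day 6 replicate 2 (adjusted p = 0.0936), day 6 replicate 3 (0.0798), day 3 replicate 1 (0.222) or day 3 replicate 2 (0.0856). Of 7 tested abscisic acid genes 2 rose, or 1 without day 6 replicate 2. The call of ABA8OX3 (OS09G0457100) was lost without any 1 of the 6 libraries but day 6 replicate 1, with adjusted p of 0.0621 to 0.201. TRAB1 (OS08G0472000), a bZIP factor of the abscisic acid response, had 24.7, 45.00 and 48.2 CPM on day 6, against 18.6, 20.4 and 21.2 CPM on day 3, and it rose by 0.96 ± 0.20 on the log2 scale (SE; adjusted p = 0.00026). Of 12 tested jasmonate genes 2 fell, or 1 without day 6 replicate 2. aoc (OS03G0438100), the allene oxide cyclase of jasmonate synthesis, had 8.35, 5.47 and 3.11 CPM on day 6, against 16.3, 12.5 and 11.97 CPM on day 3, and it fell by 1.23 ± 0.27 on the log2 scale (SE; adjusted p = 0.000424).

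Among genes against reactive oxygen, 6 of 12 tested fell, against 15.3% of all tested genes, and the other 6 did not pass (median -0.46), with 6 also without day 6 replicate 2. CAT-B (OS06G0727200), a catalase, had 289, 225 and 213 CPM on day 6, against 434, 378 and 392 CPM on day 3, and it fell by 0.73 ± 0.14 on the log2 scale (SE; adjusted p = 5.45e-05). SODCC.1 (OS03G0351500), a cytosolic superoxide dismutase, fell by 0.55 ± 0.12 on the log2 scale (SE; adjusted p = 0.000441), and sodA (OS05G0323900), the mitochondrial manganese enzyme, fell by 0.60 ± 0.12 on the log2 scale (SE; adjusted p = 0.000153). Of 6 tested metal binding and iron homeostasis genes with a checked name (4 metallothioneins, NAS3 and IRO3) 2 fell and 1 rose, all 3 of them metallothioneins, with the same counts without day 6 replicate 2. MT1A (OS11G0704500), a cysteine-rich metal binding protein, had 33.9, 34.3 and 19.97 CPM on day 6, against 90.4, 83.97 and 93.5 CPM on day 3. The days were far apart, and it fell by 1.59 ± 0.18 on the log2 scale (SE; adjusted p = 2.94e-09). MT2A (OS01G0149800) had 699, 334 and 649 CPM on day 6, against 1154, 1181 and 799 CPM on day 3, and it fell by 0.90 ± 0.22 on the log2 scale (SE; adjusted p = 0.00179). OsMT2b (OS05G0111300) had 228, 111 and 199 CPM on day 6, against 119, 124 and 82.3 CPM on day 3. Day 6 replicate 2 lay within the day 3 range, and the gene rose by 0.72 ± 0.18 on the log2 scale (SE; adjusted p = 0.00173). That call was lost in a fit of only the groups compared (adjusted p = 0.0606). Metallothioneins are short and alike, and how reads shared between such copies were counted is not given in the sources used here. Of 5 tested heat shock genes 1 fell, HSP24.1 (OS02G0758000), a small heat shock protein, with 3.28, 4.23 and 2.51 CPM on day 6, against 9.59, 9.03 and 5.42 CPM on day 3. It fell by 1.26 ± 0.29 on the log2 scale (SE; adjusted p = 0.000915).

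Of 7 tested clock genes 2 rose and 1 fell, or 1 and 1 without day 6 replicate 2. Beside the 13.9% of all tested genes that rose and the 15.3% that fell, the counts of the short lists from the clock to phenylpropanoid synthesis are given as values only. PRR73 (OS03G0284100), a pseudo-response regulator that represses morning genes, had 105, 91.5 and 89.6 CPM on day 6, against 173, 159 and 159.6 CPM on day 3. The values within each day were close together, and it fell by 0.78 ± 0.10 on the log2 scale (SE; adjusted p = 2.03e-08). GI (OS01G0182600), an evening gene and one of the most abundant named genes, had 1256, 1277 and 1334 CPM on day 6, against 1104, 1223 and 1293 CPM on day 3, with a log2 change of 0.10 ± 0.09 (SE; adjusted p = 0.476). Of 11 tested sugar transporters 2 rose and 2 fell (median -0.23). SWEET1A (OS01G0881300), of the SWEET family of sugar efflux carriers, had 99.8, 114 and 91.9 CPM on day 6, against 187, 169 and 166 CPM on day 3, and it fell by 0.77 ± 0.10 on the log2 scale (SE; adjusted p = 2.7e-07). SWEET11 (OS08G0535200), a sucrose efflux carrier, had 24.2, 22.4 and 21.00 CPM on day 6, against 43.3, 40.5 and 28.4 CPM on day 3. It fell by 0.73 ± 0.25 on the log2 scale (SE; adjusted p = 0.0218), and the call was lost without any 1 of day 6 replicate 2 (adjusted p = 0.0573), day 6 replicate 3 (0.0734), day 3 replicate 1 (0.115) or day 3 replicate 2 (0.0821). Of 6 tested genes of sugar starvation 1 fell. It was MYBS1 (OS01G0524500), an activator of starvation-induced amylase genes, with 11.2, 7.83 and 11.2 CPM on day 6, against 21.4, 17.6 and 19.8 CPM on day 3, and it fell by 0.95 ± 0.22 on the log2 scale (SE; adjusted p = 0.000891). Of 10 tested cell division genes 2 rose, both at under 10 CPM in every library. The call of CYCB1-1 (OS01G0805600), a mitotic cyclin, was lost without day 6 replicate 2 (adjusted p = 0.211) or day 3 replicate 2 (0.108), and that of MCM2 (OS11G0484300), of the helicase that opens replication origins, without day 6 replicate 3 (0.139), day 3 replicate 2 (0.0584) or day 3 replicate 3 (0.135). Of 9 tested dehydration genes 2 fell, and both lost the call without day 6 replicate 2, where 1 other rose. The call of DREB2B (OS05G0346200), a factor of the drought response, was lost without day 6 replicate 2 (adjusted p = 0.307), day 6 replicate 3 (0.185), day 3 replicate 1 (0.0872) or day 3 replicate 2 (0.104). That of DREB1A (OS09G0522200), a factor of the cold response, was lost without any 1 of the 3 day 6 libraries (0.0745, 0.184 and 0.0635) or without day 3 replicate 1 (0.351) or 2 (0.0797). Of 3 tested genes of phytoalexin synthesis 2 rose, CPS4 (OS04G0178300) and KSL7 (OS02G0570400), both diterpene cyclases, whose day 6 levels summed to 6.00 and 6.18 times those of day 3 (exact 95% intervals 3.07 to 13.1 and 3.17 to 13.5, for counting error only). Both had 10 counts over the 3 day 3 libraries, and both calls were lost without day 3 replicate 3 (adjusted p = 0.0762 for CPS4 and 0.127 for KSL7). That of KSL7 was also lost without day 6 replicate 1 (0.056), 2 (0.0848) or 3 (0.117) or day 3 replicate 1 (0.194). In the whole list of starch synthesis 1 of 12 tested genes rose and 2 fell, of the defence list 1 of 12 rose and 1 fell, and of phenylpropanoid synthesis 2 of 7 fell.

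**Figure D3:**
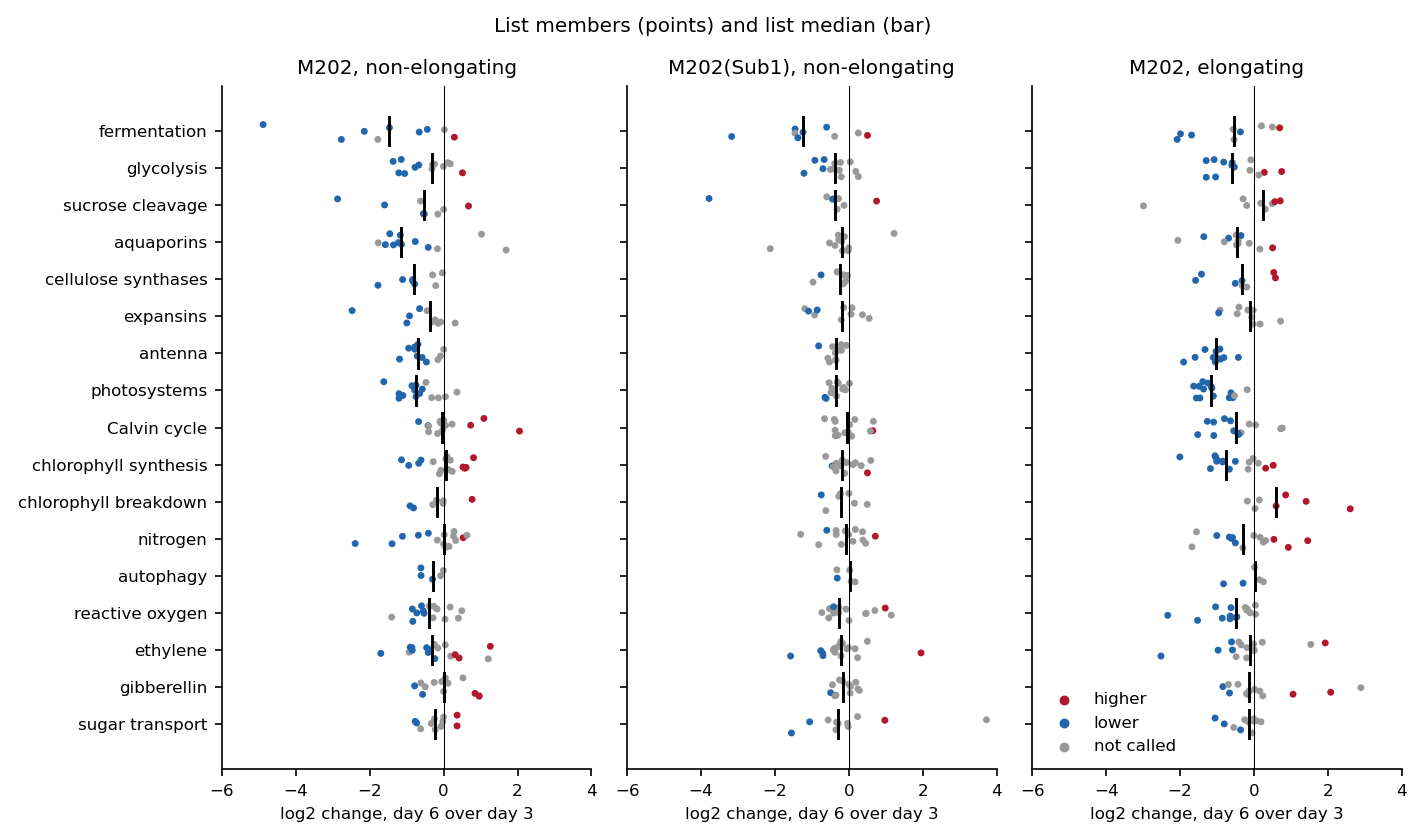
Log2 change of day 6 over day 3 (horizontal axis) for the tested members of 17 gene lists (rows) in M202 non-elongating leaves (left), M202(Sub1) non-elongating leaves (middle) and M202 elongating leaves (right). Points are genes, red where called higher, blue where called lower and grey where not called, and the black bar is the median of a list; the aquaporin median is -1.16 in the left panel, -0.18 in the middle and -0.45 in the right.

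The tissue label was checked on marker genes. The 4 mature leaf markers with a checked name summed to 2822 to 4658 CPM on day 6 and 3617 to 4658 CPM on day 3. Of these 4, CAB2R and GS2 fell. Of 3 shoot meristem markers, OSH15 and OSH6 were at 0 counts in all 6 libraries and OSH1 did not exceed 0.296 CPM. Of 6 root markers Lsi2 and PT11 were at 0 counts on both days, and the 6 together summed to 97.5 to 112 CPM on day 6 and 32.6 to 36.2 CPM on day 3. The highest of the 6 was HKT2;1 (OS06G0701700), a sodium transporter best known from roots, with 102, 82.7 and 88.01 CPM on day 6, against 26.4, 25.4 and 26.01 CPM on day 3. The days did not overlap, and it rose by 1.81 ± 0.16 on the log2 scale (SE; adjusted p = 4.13e-12), the largest rise among the genes named by rank of change. Its means on days 0, 1, 3 and 6 were 7.11 ± 1.84, 17.7 ± 2.18, 25.96 ± 0.497 and 90.8 ± 9.85 CPM (SD, n = 3 each). It also rose in M202(Sub1) non-elongating leaves, by 1.91 ± 0.17 on the log2 scale (SE; adjusted p = 1.85e-11), and in M202 elongating leaves, by 1.68 ± 0.15 (SE; adjusted p = 1.96e-11). Of the other root markers IRT1 (OS03G0667500), an iron transporter, had 2.32, 7.58 and 5.03 CPM on day 6, against 1.64, 1.78 and 2.55 CPM on day 3. It rose by 1.31 ± 0.43 on the log2 scale (SE; adjusted p = 0.0181), and the call was lost without any 1 of day 6 replicate 2 (adjusted p = 0.185), day 3 replicate 1 (0.0771) or day 3 replicate 2 (0.0653). The other 2 of the 4 tested root markers did not pass. Lsi1 had 2.11, 0.497 and 0.887 CPM on day 6, against 3.56, 2.54 and 2.55 CPM on day 3, and was thus lower on day 6. NRAMP5 had 6.13, 6.71 and 9.76 CPM on day 6, against 4.38, 2.80 and 5.11 CPM on day 3. The part of other tissues in the changes was not tested.

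Fewer genes passed the test in the line with the SUB1 locus. In M202(Sub1) non-elongating leaves 1594 genes (7.43%) changed between the same days, 772 (3.60%) upward and 822 (3.83%) downward, against 6263 in M202. This count was 802 without day 6 replicate 3 of M202(Sub1), 946 without day 3 replicate 2 and 1056 without day 3 replicate 1, and 1088 to 1436 without any 1 of the other 3 libraries. Depth in M202(Sub1) was 5520943, 5710116 and 5772945 counts on day 6, below all M202 day 6 libraries, and 6692653, 5424347 and 5556051 counts on day 3. The part of depth in the lower number of calls was not tested. The 2 changes share no library. Of the 2982 genes that rose in M202, 86.6% had a positive change in M202(Sub1), beside 47.8% of all tested genes, and of the 3281 that fell 86.7% had a negative one, beside 51.4%. The median log2 change of the first set was 0.71 in M202 and 0.29 in M202(Sub1), and of the second -0.87 and -0.34. These sets were chosen by their M202 values, so a smaller size elsewhere is no test of a difference. Genes called in both numbered 1107, which is 17.7% of the M202 calls and 69.4% of the M202(Sub1) calls, and 1097 of them had the same direction. The difference itself, tested gene by gene, passed for 360 genes (1.68%), 240 (1.12%) below 0 and 120 (0.559%) above 0. Of the 240, 217 fell and 1 rose in M202, while 28 fell and 29 rose in M202(Sub1). Of the 120, 108 rose and 1 fell in M202, while 5 rose and 15 fell in M202(Sub1). The 360 depend on single libraries, with 164 to 1030 genes when 1 of the 12 was left out, and 444 without day 6 replicate 2 of M202.

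Of the named genes whose fall was steeper in M202, 2 channels, a clock gene and a metallothionein had the smallest adjusted p but not the greatest differences. TIP2-2 averaged 209 ± 23.3 CPM on day 6 and 536 ± 49.8 CPM on day 3 in M202 (SD, n = 3), beside 255 ± 43.4 CPM on day 6 and 310.4 ± 16.3 CPM on day 3 in M202(Sub1) (SD, n = 3). The mean of M202 was thus the lower on day 6 and the higher on day 3, and the changes differed by -1.07 ± 0.19 (SE; adjusted p = 0.00111). PIP1-1 averaged 109 ± 15.5 CPM on day 6 and 255 ± 12.7 CPM on day 3 in M202, beside 151 ± 32.9 CPM on day 6 and 164 ± 16.3 CPM on day 3 in M202(Sub1), with a difference of -1.11 ± 0.20 (SE; adjusted p = 0.00142). PRR73 averaged 95.4 ± 8.35 CPM on day 6 and 164 ± 8.04 CPM on day 3 in M202, beside 146 ± 15.6 CPM on day 6 and 144 ± 15.6 CPM on day 3 in M202(Sub1). Its 2 means in M202(Sub1) differed by less than their SD, and the changes differed by -0.80 ± 0.13 (SE; adjusted p = 0.000595). That call was lost in a fit of only the groups compared (adjusted p = 0.0523). MT1A averaged 29.4 ± 8.17 CPM on day 6 and 89.3 ± 4.86 CPM on day 3 in M202, beside 57.7 ± 14.3 CPM on day 6 and 67.8 ± 7.06 CPM on day 3 in M202(Sub1), with a difference of -1.36 ± 0.25 (SE; adjusted p = 0.00153). ADH1 fell in both lines but averaged 51.9 ± 14.9 CPM on day 6 and 231 ± 15.5 CPM on day 3 in M202, beside 313 ± 31.2 CPM on day 6 and 738 ± 76.8 CPM on day 3 in M202(Sub1). Its fall was the steeper in M202, with a difference of -0.91 ± 0.21 (SE; adjusted p = 0.0108). This call was lost without day 6 replicate 3 of M202 (adjusted p = 0.055) or in a fit of only the groups compared (0.097). ADH1 is named here because it leads the fermentation genes and not by rank of its difference.

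A sugar carrier fell in M202 and rose in M202(Sub1). SWEET11 averaged 22.5 ± 1.604 CPM on day 6 and 37.4 ± 7.904 CPM on day 3 in M202, beside 31.7 ± 1.39 CPM on day 6 and 15.99 ± 3.76 CPM on day 3 in M202(Sub1), where it rose by 0.98 ± 0.26 on the log2 scale (SE; adjusted p = 0.013). The rise in M202(Sub1) was lost without day 6 replicate 3 (adjusted p = 0.0574), day 3 replicate 2 (0.0558) or day 3 replicate 3 (0.0909) of that line. The changes differed by -1.71 ± 0.36 (SE; adjusted p = 0.00607). CAT-A (OS02G0115700) averaged 127 ± 32.01 CPM on day 6 and 167 ± 16.8 CPM on day 3 in M202, beside 19.9 ± 3.97 CPM on day 6 and 10.1 ± 1.97 CPM on day 3 in M202(Sub1), where it rose by 0.99 ± 0.23 on the log2 scale (SE; adjusted p = 0.00345). Its change in M202 was -0.39 ± 0.17 (SE; adjusted p = 0.0839), and the changes differed by -1.38 ± 0.28 (SE; adjusted p = 0.00561). SWEET4 (OS02G0301100), another carrier of the SWEET family, and MCM2 had the opposite difference, 0.70 ± 0.19 (SE; adjusted p = 0.0381) and 1.84 ± 0.51 (SE; adjusted p = 0.0452). Each of these 2 calls was lost on leaving out any 1 of 8 of the 12 libraries. Of the 12 tested aquaporins 3 differed, all with the steeper fall in M202. The third, PIP2-6, lost this call on leaving out any 1 of 7 of the 12 libraries (adjusted p of 0.0653 to 0.114). For the whole group of aquaporins the list's median was -1.16 in M202 and -0.18 in M202(Sub1).

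**Figure D4:**
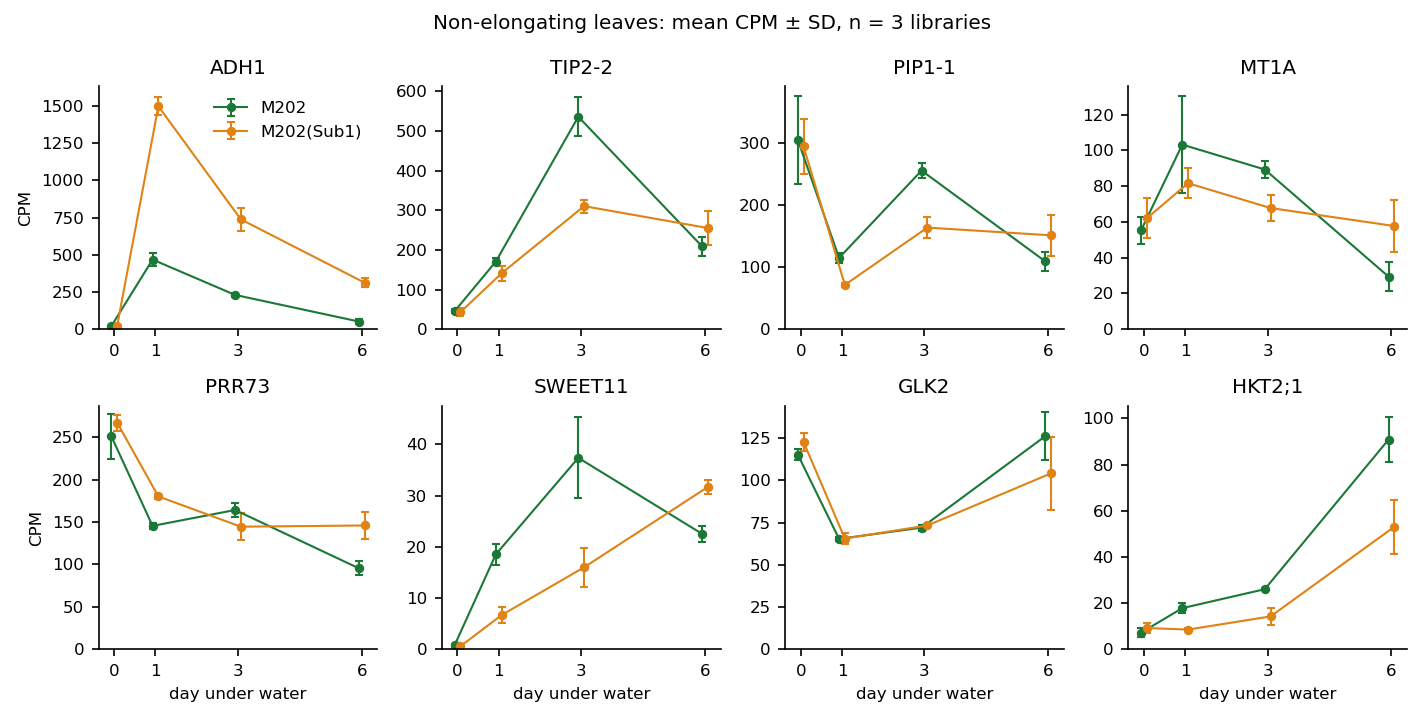
Mean CPM ± SD (vertical axis, from 0; n = 3 libraries) of 8 genes in non-elongating leaves of M202 (green) and M202(Sub1) (orange) on days 0, 1, 3 and 6 (horizontal axis). Between days 3 and 6 the M202 line of TIP2-2, PIP1-1, MT1A, PRR73 and SWEET11 crosses below that of M202(Sub1), while HKT2;1 is higher on day 6 in both lines.

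In the elongating leaf of M202 nearly as many genes passed. In M202 elongating leaves 6074 genes (28.3%) changed, 2933 (13.7%) upward and 3141 (14.6%) downward. Genes called in both leaf types numbered 3092, which is 49.4% of the calls in non-elongating and 50.9% of those in elongating leaves, and 2983 of them had the same direction. The difference passed for 1154 genes (5.38%), 663 (3.09%) below 0 and 491 (2.29%) above 0. It passed for 1477 genes without day 6 replicate 2 of the non-elongating leaves, and for 745 without day 6 replicate 3 of the elongating leaves. Of the 663, 360 fell in non-elongating leaves and 362 rose in elongating leaves. Of the 491, 245 rose in non-elongating leaves and 273 fell in elongating leaves.

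Of 4 tested genes of chlorophyll breakdown with a checked name 3 had a difference below 0, against 3.09% of all tested genes. Over the whole list it was 5 of 7. In the 3 genes the change in the lower leaves was below that in the elongating leaf. SGR averaged 216 ± 113 CPM on day 6 and 126 ± 5.53 CPM on day 3 in non-elongating leaves, beside 89.7 ± 17.5 CPM on day 6 and 14.7 ± 3.21 CPM on day 3 in elongating leaves (SD, n = 3 each), where it rose by 2.61 ± 0.26 on the log2 scale (SE; adjusted p = 2.16e-10). The changes differed by -1.84 ± 0.34 (SE; adjusted p = 0.00053). NYC1 averaged 227 ± 37.1 CPM on day 6 and 259.6 ± 8.33 CPM on day 3 in non-elongating leaves, beside 176 ± 13.04 CPM on day 6 and 116 ± 6.98 CPM on day 3 in elongating leaves, with a difference of -0.79 ± 0.14 (SE; adjusted p = 0.000415). RCCR1 averaged 25.5 ± 8.35 CPM on day 6 and 48.1 ± 4.11 CPM on day 3 in non-elongating leaves, beside 6.79 ± 0.707 CPM on day 6 and 3.71 ± 1.39 CPM on day 3 in elongating leaves, and the changes differed by -1.77 ± 0.37 (SE; adjusted p = 0.00204). RCCR1 lies outside the rule for naming genes by their difference and was added after its values were seen. Sucrose synthase SUS1 averaged 11.9 ± 2.84 CPM on day 6 and 36.2 ± 1.92 CPM on day 3 in non-elongating leaves, beside 12.2 ± 3.54 CPM on day 6 and 8.57 ± 0.606 CPM on day 3 in elongating leaves, and the changes differed by -2.09 ± 0.36 (SE; adjusted p = 0.000222). CESA5 averaged 131 ± 20.04 CPM on day 6 and 233 ± 8.16 CPM on day 3 in non-elongating leaves, beside 110.0 ± 5.14 CPM on day 6 and 73.4 ± 8.81 CPM on day 3 in elongating leaves, where it rose by 0.58 ± 0.15 on the log2 scale (SE; adjusted p = 0.0024). Its changes differed by -1.42 ± 0.21 (SE; adjusted p = 1.65e-05). MT1A and PIP2-6 fell in the lower leaves, and their changes in the elongating leaf were 0.05 ± 0.19 (SE; adjusted p = 0.87) and 0.16 ± 0.23 (SE; adjusted p = 0.636). The differences were -1.65 ± 0.26 (SE; adjusted p = 5.07e-05) for MT1A and -1.62 ± 0.30 (SE; adjusted p = 0.000539) for PIP2-6.

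Among the named genes with a difference above 0 were several of the chloroplast. RBCS (OS12G0274700), a small subunit of Rubisco, averaged 328 ± 51.7 CPM on day 6 and 351 ± 10.2 CPM on day 3 in non-elongating leaves, beside 1678 ± 474 CPM on day 6 and 4019 ± 464 CPM on day 3 in elongating leaves (SD, n = 3 each). It fell by 1.26 ± 0.16 on the log2 scale (SE; adjusted p = 6.12e-08) in elongating leaves, its change in the lower leaves was -0.10 ± 0.16 (SE; adjusted p = 0.694), and the changes differed by 1.16 ± 0.23 (SE; adjusted p = 0.000929). Rice has several almost identical genes for this subunit, so the counts of 1 copy are uncertain. Fd-GOGAT (OS07G0658400), the plastid glutamate synthase, averaged 581 ± 72.3 CPM on day 6 and 574 ± 20.05 CPM on day 3 in non-elongating leaves, beside 534 ± 27.4 CPM on day 6 and 846 ± 29.8 CPM on day 3 in elongating leaves, with a difference of 0.68 ± 0.17 (SE; adjusted p = 0.00926). AGPS2 (OS08G0345800), a small subunit of the enzyme that makes ADP-glucose for starch, had a difference of 0.81 ± 0.20 (SE; adjusted p = 0.0106). For CHLH, which rose in the lower leaves, the difference was 0.68 ± 0.18 (SE; adjusted p = 0.0157). It was lost without day 6 replicate 1 of the non-elongating leaves (adjusted p = 0.055) or day 3 replicate 1 of the elongating leaves (0.0523). For OsMT2b the difference was 1.11 ± 0.25 (SE; adjusted p = 0.0046) and for SWEET4 0.73 ± 0.18 (SE; adjusted p = 0.0106). A fit of only the groups compared lost the calls of CHLH (adjusted p = 0.0516) and OsMT2b (0.0585). Of 14 tested Calvin cycle genes 9 fell in elongating leaves (median -0.49), while 2 fell and 3 rose in non-elongating leaves (median -0.05). Antenna genes fell in both, 8 of 11 in non-elongating and 11 of 11 in elongating leaves, with medians of -0.69 and -1.02.

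**Figure D5:**
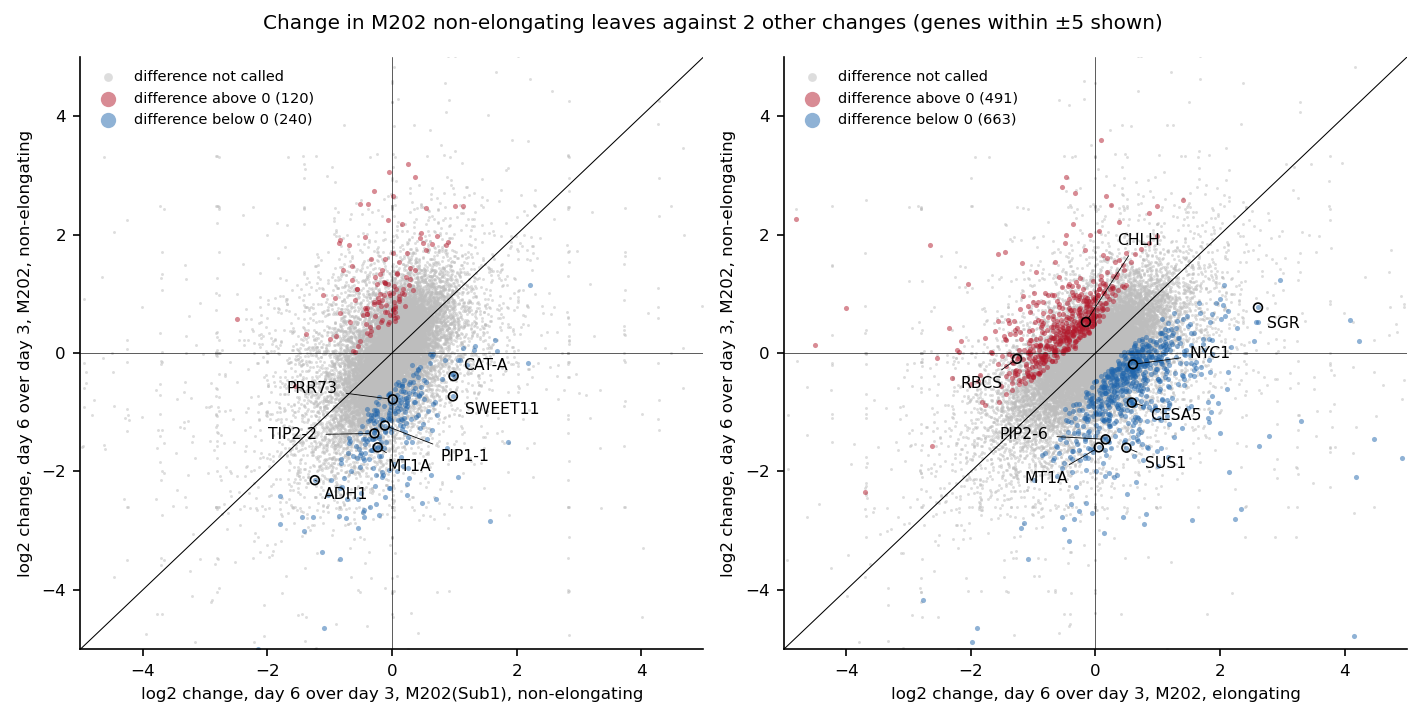
Log2 change of day 6 over day 3 in M202 non-elongating leaves (vertical axes) against that in M202(Sub1) non-elongating leaves (left) and in M202 elongating leaves (right), with the line of equal change. Points are tested genes within 5 log2 units of 0, blue where the difference was called below 0 (240 left, 663 right) and red where it was called above 0 (120 left, 491 right).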

How the data were processed

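Total RNA of whole rice leaves was sequenced in pairs of reads, per the labels. The authors deposited 1 table of whole-number read counts, with genes in rows and libraries in columns. The submitters' processing notes name STAR, featureCounts, DESeq2 and the build IRGSP-1.0, and give no version of them. Of the nonzero counts 62.3 to 73.8% per library were even, so the mates of a pair may each have been counted, and counts are then not independent fragments. All value columns were used.

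Genes were kept with filterByExpr (minimum count 10, minimum total 15), which left 99.86% or more of every library, and scaled by TMM. One fit of all 48 libraries and 16 groups in edgeR 4.0.16 (R 4.3.3; quasi-likelihood F test, two-sided, 32 residual degrees of freedom, common biological coefficient of variation 0.152) gave each comparison, with p-values adjusted by Benjamini and Hochberg over all 21453 genes and a threshold of 0.05. Differences between changes are contrasts of the same fit. With nothing said of separate plants per library beyond independent replication, p-values measure the spread between libraries within groups. That spread is estimated over all 16 groups and not from the 2 days alone. Pairs of M202 non-elongating day 6 replicates had a chi-square per degree of freedom of 29.8 to 86.7, against a median of 9.08. The shared spread may thus be too small for that group. Intervals and errors leave out anything the libraries of a group share.

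The 35 gene lists, the rule for named genes and the comparisons were chosen with earlier results of these data known. No list was given a set test. The count table holds identifiers only (the 2 digits after OS are the chromosome), and of the 393 identifiers in the lists, 260 were paired with a symbol whose chromosome and order fitted the RefSeq gene table of assembly ASM3414082v1; 8 pairs did not and were dropped, and 125 remain unchecked and unnamed. Named are up to 12 genes per direction with the greatest change among called genes that do not overlap and average at least 10 CPM, up to 4 called members per list, up to 6 genes per direction of each difference, and the 5 most abundant of each day. Genes with close copies may share reads. Scripts were tested on simulated data. The alternatives were 2 other scalings (RLE and upper quartile), DESeq2 1.42.0, counts halved, low counts kept, the replicate number as a block, a fit of only the groups compared, and leaving out each of their libraries.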

Additional observations from a re-analysis of the deposited data

Results flagged for a closer look

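The change in M202 non-elongating leaves differed from that in M202(Sub1) non-elongating leaves for 360 genes, by a test of the difference itself. Named genes with a log2 difference below 0 were SWEET11 (-1.71), CAT-A (-1.38), MT1A (-1.36), PIP1-1 (-1.11), TIP2-2 (-1.07) and PRR73 (-0.80). Those above 0 were MCM2 (1.84) and SWEET4 (0.70).

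The change differed from that in M202 elongating leaves for 1154 genes, by the same kind of test. Below 0 were SUS1 (-2.09), SGR (-1.84), MT1A (-1.65), PIP2-6 (-1.62), CESA5 (-1.42) and NYC1 (-0.79). Above 0 were RBCS (1.16), OsMT2b (1.11), AGPS2 (0.81), SWEET4 (0.73), Fd-GOGAT (0.68) and CHLH (0.68). With 3 libraries a group, single libraries far from their group were not searched for gene by gene.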

How the results depend on the processing

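No called change of a named gene reversed under any alternative run, but the balance of rises and falls did. Without day 6 replicate 2 the log2 changes of ALDP (0.05 to -0.28) and RBCS (-0.10 to 0.04) changed sign, and neither was called in either fit. With upper-quartile scaling 3188 genes rose and 3083 fell in M202 non-elongating leaves (50.8% rises, against 47.6%), 801 and 787 in M202(Sub1) and 3127 and 2952 in elongating leaves; among changes of at least 2-fold, 847 rose and 1280 fell. The 6263 changed genes were 5908 to 6675 under both other scalings, no filter, DESeq2 and halved counts, and 4430 to 6793 with 1 library left out. Fitting the groups alone gave 3498 genes, 3438 of them among the 6263. For the difference from M202(Sub1), 360 genes became 585 without the filter, 656 with DESeq2 and 112 in the groups alone, and 164 (without M202(Sub1) day 6 replicate 2) to 1030 (without M202 day 6 replicate 1) with 1 library left out. It fell to 167 without M202 day 6 replicate 3, 189 and 219 without M202 day 3 replicates 1 and 2, and 208, 232 and 229 without M202(Sub1) day 3 replicates 1, 2 and 3, and was 548 without M202(Sub1) day 6 replicate 3. The cause was not tested. For the difference from elongating leaves, 1154 became 633 in the groups alone and 745 (without elongating day 6 replicate 3) to 1477 with 1 library left out. The 1594 genes of M202(Sub1) were 802 (without its day 6 replicate 3) to 1436. The fits of the groups alone and with a library left out use fewer samples, and the former take the spread from those groups only. Same-numbered libraries of days 6 and 3 had deviations from their group means that correlated at 0.148, -0.094 and -0.038. Those of differently numbered libraries correlated at -0.191 to 0.213. With 3 libraries a day these values cannot tell whether the numbers pair the libraries. The replicate block gave 6213, 354 and 1133 genes for the change and the 2 differences. It ended the call of ETR3, an ethylene receptor (adjusted p = 0.0546). Of the 80 named genes called in the main comparison, 49 passed under every alternative run and 31 failed at least 1. Without day 6 replicate 2, 63 of the 80 passed. In the fit of the groups alone 22 of the 80 lost the call. Depth limits genes near the filter, such as PDC1 with 7 counts on day 6.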
